A study of Mus musculus with 30 samples.

Results

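Forebrain gene expression of 30 male C57BL mice was compared between arrays whose sample titles carry replicate numbers 1 to 6 and arrays numbered 7 to 10. The first set held 18 arrays, called low-numbered here, and the second held 12, called high-numbered. Members were taken from the titles alone and made up all 30 arrays of the series. Each of 3 treatments gave 6 low-numbered and 4 high-numbered arrays: mice given clozapine, an atypical antipsychotic, at 12 mg/kg/day, mice given haloperidol, a typical antipsychotic that blocks dopamine D2 receptors, at 1.6 mg/kg/day, and untreated controls. Both drugs were given in the drinking water for 12 weeks. C57BL is an inbred laboratory strain. Every mouse was caged alone, and its RNA was put on its own Affymetrix MOE430A array without pooling. The labels give the hemisphere as right in the source and as left in the tissue tag. They give an age of 4 weeks, and they name clozapine beside the dose in the haloperidol protocol. They do not say whether the number stands for an order of killing, dissection, extraction, labelling or scanning, so the comparison asks which genes go with the number rather than with the drug. Number and any such step cannot be told apart.

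The division after number 6 was noticed in an earlier clustering of these same values. A p-value below states how large a difference was against the spread between mice and is not independent evidence that the arrays divide there.

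Brain RNA varies with the hour and the circumstances of death. In the circadian clock, CLOCK or NPAS2 pairs with BMAL1, the product of Arntl, and switches on the Per and Cry genes, whose proteins then repress that pair, while REV-ERB proteins (Nr1d1 and Nr1d2) and ROR proteins act in opposite directions on Arntl. Clock factors in turn drive output genes such as Dbp and Tef, whereas Nfil3 encodes a repressor that competes with DBP for D-box sequences. Immediate early genes are switched on within a short time of neuronal activity, and heat shock and glucocorticoid-responsive genes follow temperature and stress.

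All arrays carried brain RNA. Snap25, a presynaptic protein, lay between 12.54 and 13.56 and Mbp, a myelin protein, between 13.85 and 14.49 on the log2 scale, the scale of all values here. The cerebellar markers Gabra6, Cbln3 and Pcp2 stayed at or below 3.44. Array medians lay between 4.63 and 4.88. The highest correlation of values between any pair of arrays was 0.994, and 0 pairs were identical. Principal components were computed from the 12944 probe sets (short-probe groups, each against a transcript) with a mean of at least 4. Component 1 held 33.7% of the variance, and its score averaged 19.3 ± 37.0 (SD, n = 18) in low-numbered and -28.9 ± 19.1 (SD, n = 12) in high-numbered arrays. The means differed (permutation test within treatment, two-sided, p = 0.00057, adjusted over 3 components to 0.00171). Of the component's variance 38.1% lay between the sets, and single arrays overlapped. The division had been noticed in these same values, so p-values on components do not count as support for it. The 12 high-numbered arrays all scored below 0. Of the low-numbered arrays, 11 scored between 41.7 and 58.4, and the other 7 scored below 0: control 1, 4 and 6, clozapine 1, 2 and 6 and haloperidol 2. Component 2 held 22.5% of the variance (permutation p = 0.0402, adjusted 0.043). On it the 4 high-numbered controls and haloperidol 8, 9 and 10 scored between -48.3 and -41.0, while the 4 high-numbered clozapine arrays scored between 8.46 and 26.4. Haloperidol 7 scored 75.4 and control 1 scored 74.2. These 2 arrays and haloperidol 2, at 98.3 on component 3, stood apart; counts of probe sets and of list members without the 3 are given beside those results they moved most.

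Affymetrix control probe sets also differed by number. The 18S ribosomal RNA control, read by 3 probe sets and given as their mean, ran from 3.11 to 13.1 (median 8.5) in low-numbered arrays and from 2.41 to 6.41 (median 3.91) in high-numbered arrays. Of the 12 high-numbered arrays, the 4 with clozapine lay between 2.41 and 2.50, the 4 controls between 4.11 and 6.28, and the 4 with haloperidol between 2.41 and 6.41. The sets overlapped, and no test was made because the control was singled out after its values were seen. The high-numbered arrays fell into separate groups on both measures: the 4 with clozapine and haloperidol 7, all at or below 2.50 for 18S, scored between -68.5 and -30.5 on component 1, and the other 7, between 3.70 and 6.41 for 18S, scored between -18.9 and -12.9. Among the 7 low-numbered arrays below 0, control 1 had the lowest score (-50.9) and the lowest 18S value (3.11), and clozapine 2 the highest of both (-11.1 and 11.5). The 11 above 0 ran from 5.52 to 13.1 for 18S. RNA integrity, read as the 3' minus the 5' probe set, differed between the sets by -0.42 for Gapdh (permutation p = 0.424, adjusted 0.434; -0.21 and 0.00968 without the 3 outlying arrays) and by 0.26 for Actb (permutation p = 0.22, adjusted 0.33). The same reading, given without a test, averaged 5.03 ± 0.42 (SD, n = 18) and 4.51 ± 0.33 (SD, n = 12) for the pyruvate carboxylase control and 1.24 ± 0.35 and 1.70 ± 0.53 for the transferrin receptor control, so the 4 readings did not move one way. Their part in the differences below was not tested beyond a fit with the mean of the Gapdh and Actb readings as an RNA quality covariate (5371 probe sets called). The hybridization spikes differed by -0.50 (permutation p = 0.0401, adjusted 0.0802). The labelling spikes, whose values lie at the lower end of the scale, averaged 2.81 ± 0.13 (SD, n = 18) and 2.64 ± 0.10 (SD, n = 12; permutation p = 0.00056, adjusted 0.00219). The interquartile range of an array averaged 4.79 ± 0.19 (SD, n = 18) and 5.01 ± 0.09 (SD, n = 12; permutation p = 0.00073, adjusted 0.00219).

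**Figure D1:**
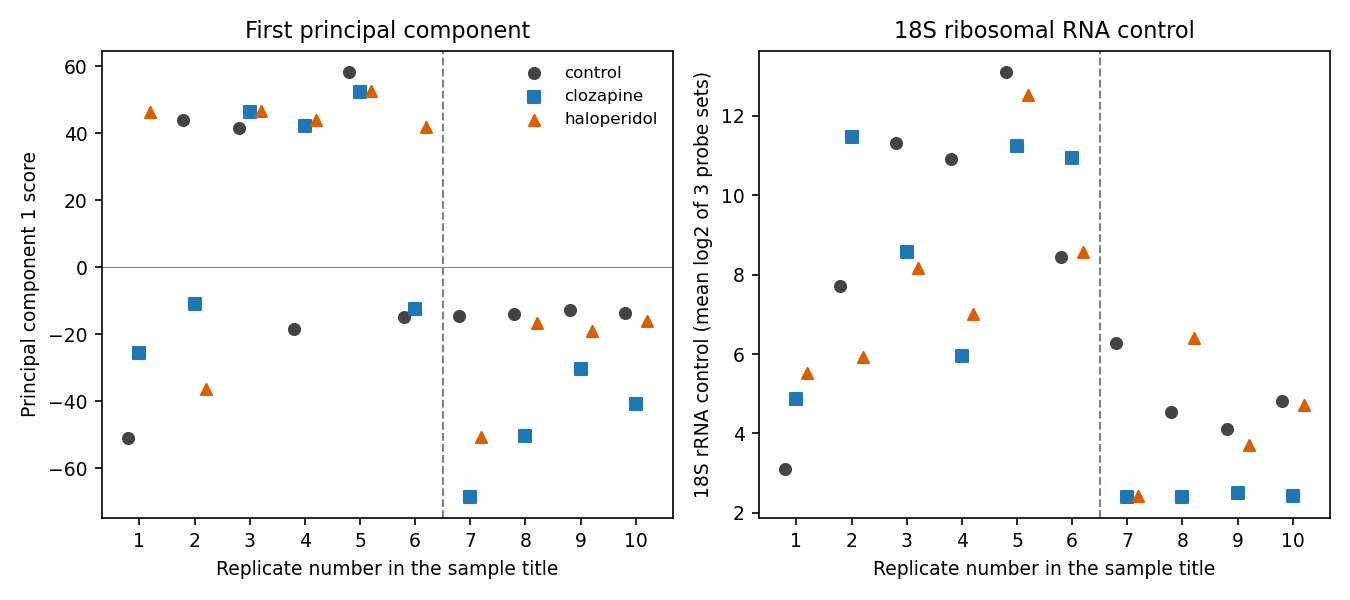
First principal component score (left) and 18S ribosomal RNA control, mean log2 value of 3 probe sets (right), against the replicate number in the sample title; each point is an array, colour and shape give the treatment, and the dashed line separates numbers 6 and 7. All 12 high-numbered arrays score below 0, beside 7 of the 18 low-numbered arrays, and their 18S values stay at or below 6.41.

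Of the 12944 probe sets tested, 4157 (32.1%) differed between the sets at an adjusted p under 0.05 (limma, treatment as a covariate, Benjamini-Hochberg adjustment over all probe sets). In high-numbered arrays 2394 (18.5%) were higher and 1763 (13.6%) were lower, and 677 of them differed by over 2-fold. The split of 57.6% of calls higher rested on scaling: it was 45.6% after quantile normalization of the deposited values and 36.9% after centring each array on its median, which moved the median difference of all tested probe sets from 0.06 to -0.05. Of the 4157, 3748 (90.2%) had the same sign in each treatment taken by itself. With the 18S control as a covariate, tried after its values were seen, 371 were called (203 higher, 168 lower). Since that control and the number set move together, their parts were not tested apart. In the same fit 0 probe sets were called for treatment (limma F test; 568 had an unadjusted p under 0.05, and the smallest adjusted p was 0.926). None was called without the 3 outlying arrays either (2390 unadjusted, smallest adjusted p 0.0918). The median absolute difference was 0.26 by number, 0.13 for clozapine minus control and 0.13 for haloperidol minus control.

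Tsn, encoding the nucleic acid binding protein translin, and Cd47, a cell surface protein that restrains phagocytes, had no overlap between the sets, as 6 of all tested probe sets did (0.0464%). Tsn ran from 5.71 to 7.66 (median 6.79) in low-numbered and from 7.86 to 8.38 (median 8.08) in high-numbered arrays. It was thus above every low-numbered array in all 12 high-numbered ones, by 1.37 ± 0.15 (SE, limma adjusted p = 2.95e-06) or 2.58-fold. Cd47 ran from 8.15 to 9.83 (median 8.71) and from 9.86 to 10.33 (median 10.09), a difference of 1.21 ± 0.15 (SE, adjusted p = 1.14e-05). Ywhab, which encodes 14-3-3 beta, an adaptor of phosphorylated proteins, rose by 2.16 ± 0.24 (SE, adjusted p = 2.95e-06). Its values lay between 6.08 and 9.79 (median 7.03) against 8.41 to 9.64 (median 9.42), with 16 of 18 low-numbered arrays below every high-numbered one and clozapine 1 above them all.

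The greatest rises among genes with a like sign in all treatments were those of Dst, a linker of cytoskeletal filaments, and Pdpk1, the kinase that activates AKT. Dst ran from 3.11 to 8.59 (median 4.18) and from 4.80 to 8.47 (median 8.07), a rise of 2.78 ± 0.50 (SE, adjusted p = 0.00038). Its high low-numbered values were clozapine 1 at 8.59, haloperidol 2 at 7.23 and control 1 at 7.18, and its low high-numbered value was haloperidol 7 at 4.80. Pdpk1 ran from 2.63 to 5.33 (median 4.27) and from 2.50 to 8.10 (median 7.60); 11 of 12 high-numbered arrays exceeded every low-numbered one, and clozapine 7 was the array at 2.50. Its rise was 2.65 ± 0.41 (SE, adjusted p = 8.62e-05). Grin2b, an NMDA receptor subunit, had a median of 3.67 (2.39 to 5.50) against 7.07 (2.65 to 7.65), a rise of 2.51 ± 0.44 (SE, adjusted p = 0.000282). Camkk2, a kinase upstream of AMPK, rose by 2.47 ± 0.35 (SE, adjusted p = 3.89e-05), and Sec24b, a coat protein of vesicles that leave the endoplasmic reticulum, by 2.53 ± 0.46 (SE, adjusted p = 0.00047). Low-numbered medians of Grin2b, Camkk2 (3.31) and Sec24b (3.16) lay below the mean of 4 used as a filter. Low-numbered means of these genes (3.58, 3.55 and 3.38) did too. They passed the filter through the high-numbered arrays, with means of 6.10, 6.02 and 5.91. Their sizes thus rest on values near the lower end of the scale, and their calls are not independent of the filter. Jkamp, a membrane protein that binds the kinase JNK, and the transcriptional regulators Klf7 and Nacc2 rose by 2.58, 2.48 and 2.41, and in each of these 3 genes all 12 high-numbered arrays lay above the low-numbered mean.

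Among the smallest p-values in that direction, Klf9, a transcription factor induced by glucocorticoids and thyroid hormone, rose by 1.95 ± 0.24 (SE, adjusted p = 1.14e-05), from 8.30 to 10.99 (median 9.34) up to 10.79 to 11.90 (median 11.27). Only 1 of the 18 low-numbered arrays reached the high-numbered range. Phf20, a subunit of a histone acetyltransferase complex, rose by 1.70 ± 0.22 (SE), Kif3a, a kinesin motor of axons and cilia, by 1.45 ± 0.19, Sel1l, an adaptor for the disposal of misfolded proteins, by 1.30 ± 0.17 and G3bp2, a stress granule RNA-binding protein, by 1.53 ± 0.21. In all 4 of these genes the 12 high-numbered arrays exceeded the low-numbered mean.

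Lower in high-numbered arrays without overlap were Sem1, a small proteasome subunit, Pex11a, which takes part in peroxisome division, 1 of 3 sets for the RNA-binding protein Atxn2, and a probe set without a single gene name. Sem1 ran from 9.31 to 10.04 (median 9.69) in low-numbered and from 8.60 to 9.19 (median 8.88) in high-numbered arrays, and fell by 0.79 ± 0.09 (SE, adjusted p = 2.95e-06). Pex11a ran from 5.43 to 7.61 (median 6.61) and from 4.11 to 5.41 (median 5.06), and fell by 1.54 ± 0.21 (SE, adjusted p = 3.22e-05). Rpl37, a protein of the large ribosomal subunit, ran from 8.31 to 9.63 (median 9.22) and from 7.43 to 8.82 (median 8.02); 16 of 18 low-numbered arrays lay above every high-numbered one. It fell by 1.08 ± 0.12 (SE, adjusted p = 2.95e-06).

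The greatest fall was that of Ago2, the nuclease that cuts microRNA targets. Ago2 ran from 5.52 to 10.51 (median 9.73) and from 2.76 to 7.23 (median 6.80), and 15 of 18 low-numbered arrays lay above every high-numbered one. It fell by 3.39 ± 0.60 (SE, adjusted p = 0.00033), and its difference was -1.58 among controls, -5.59 among clozapine and -3.0 among haloperidol arrays. Scaf11, a splicing-associated protein, fell by 3.34 ± 0.66 (SE, adjusted p = 0.000739) and Csnk2a1, a catalytic subunit of casein kinase 2, by 3.01 ± 0.63 (SE, adjusted p = 0.00118). Their differences were -4.59 and -5.0 among clozapine arrays and -1.85 and -1.23 among controls, and an interaction of set and treatment was not called for either (limma adjusted p = 0.558 and 0.34). Agfg2 fell by 3.05, Rbfox2, a splicing regulator of neurons, by 2.90, Rufy3, an adaptor in axons, by 2.81, Fut9, a fucosyltransferase that makes Lewis x, by 2.76 and the lipid droplet hydrolase Ldah by 2.72. In all 8 of these genes the 12 high-numbered arrays lay below the low-numbered mean. The high-numbered mean of Agfg2 (3.40) lay below the filter of 4, which it passed through the low-numbered arrays (6.45). The size of its fall thus rests on values near the lower end of the scale, and its call is not independent of the filter.

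Smaller but steadier falls were those of Ina, the neurofilament protein internexin (1.12 ± 0.14, SE), Homer2, a postsynaptic scaffold (1.70 ± 0.23), Mapre2, which binds microtubule ends (1.19 ± 0.16), Rrp36, a factor in ribosomal RNA processing (1.31 ± 0.18), and the small GTPase Rras (1.79 ± 0.25), with adjusted p between 1.7e-05 and 3.89e-05. Rrp36 likewise averaged 4.77 and 3.45 and passed the filter through the low-numbered arrays. Homer2 ran from 8.74 to 10.50 (median 9.99) and from 5.64 to 8.74 (median 8.33), and 17 of 18 low-numbered arrays lay above every high-numbered one. The 32 genes named to this point were chosen for their size or p in this comparison. Some low-numbered arrays reached into the high-numbered range of these genes: clozapine 1 did so for 23 genes, haloperidol 2 for 15 and control 1 for 14. The 7 low-numbered arrays below 0 on component 1, which was computed from the same values, did so for 8 to 23 genes and the other 11 for 3 to 5. With the 18S covariate 21 of the 32 were still called, among them Tsn, Cd47, Ywhab, Sem1 and Rpl37; Ago2 fell by 1.75 (adjusted p = 0.185) and Dst rose by 1.97 (adjusted p = 0.106).

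**Figure D2:**
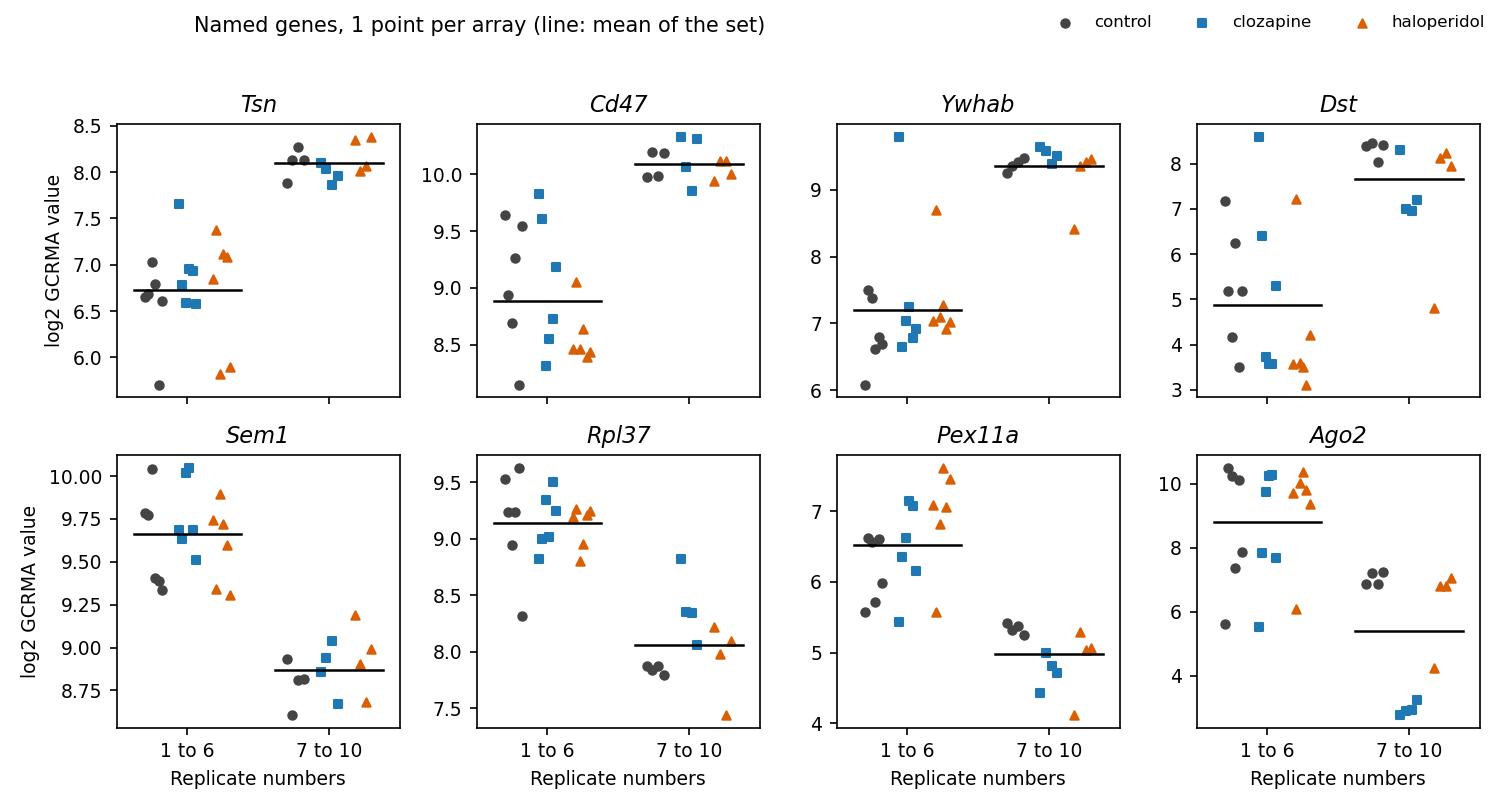
Log2 GCRMA value of 8 named genes, 4 higher (top) and 4 lower (bottom) in high-numbered arrays; each point is an array, colour and shape give the treatment, and the line is the mean of the set. Tsn, Cd47, Sem1 and Pex11a do not overlap between the sets, whereas Dst and Ago2 have low-numbered arrays within the high-numbered range.

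Clock genes moved in both directions. With 1 probe set per gene, 1 was called higher and 1 lower in each clock list: 5 activators, 8 repressors and 7 output factors. Of all 7576 genes 16.4% were called higher and 12.7% lower, so clock genes were called about as often as genes at large. Clock genes whose tested probe sets all passed in a like direction were Usp2 and Nr1d2, higher in high-numbered arrays, and Per3, Nfil3 and Npas2, lower. The promoter windows of the first 4 are shown because the clock acts through short motifs there: 250 bases before and 50 after the gene's start, from RefSeq (GRCm38.p6), on the strand of the gene. Each window was searched on both strands for the E-box CACGTG, bound by CLOCK and BMAL1, the D-box TTATGTAA, bound by DBP and NFIL3, and AGGTCA, the core bound by ROR and REV-ERB proteins; matches are in capitals. Usp2 lies at chr9:44084670-44084969 on the plus strand, and Nr1d2 (chr14:18239057-18239356), Per3 (chr4:151044616-151044915) and Nfil3 (chr13:52980990-52981289) on the minus strand.
Usp2: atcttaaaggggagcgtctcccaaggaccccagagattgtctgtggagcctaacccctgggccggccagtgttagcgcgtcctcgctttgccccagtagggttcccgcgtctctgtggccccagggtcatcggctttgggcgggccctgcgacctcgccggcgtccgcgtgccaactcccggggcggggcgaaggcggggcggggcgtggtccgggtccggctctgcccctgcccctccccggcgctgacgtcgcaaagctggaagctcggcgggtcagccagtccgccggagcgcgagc
Nr1d2: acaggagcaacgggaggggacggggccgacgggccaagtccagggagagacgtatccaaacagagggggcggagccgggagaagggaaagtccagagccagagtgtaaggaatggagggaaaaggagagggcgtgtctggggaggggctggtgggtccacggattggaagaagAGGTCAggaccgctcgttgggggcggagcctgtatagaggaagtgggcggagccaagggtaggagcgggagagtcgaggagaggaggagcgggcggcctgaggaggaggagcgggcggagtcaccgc
Per3: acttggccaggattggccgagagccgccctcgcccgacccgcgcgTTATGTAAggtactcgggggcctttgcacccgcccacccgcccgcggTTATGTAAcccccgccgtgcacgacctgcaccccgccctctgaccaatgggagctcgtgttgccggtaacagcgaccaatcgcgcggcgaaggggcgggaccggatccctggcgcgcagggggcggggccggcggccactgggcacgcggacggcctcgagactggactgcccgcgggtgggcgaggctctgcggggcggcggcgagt
Nfil3: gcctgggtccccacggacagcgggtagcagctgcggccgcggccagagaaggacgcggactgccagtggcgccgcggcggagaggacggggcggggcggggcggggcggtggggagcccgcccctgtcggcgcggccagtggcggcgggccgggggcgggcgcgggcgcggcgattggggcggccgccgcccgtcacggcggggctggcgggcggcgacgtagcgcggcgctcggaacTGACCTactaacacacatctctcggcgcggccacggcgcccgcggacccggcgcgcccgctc

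Per3 held 2 D-boxes, 205 and 158 bases before its start; of 32851 RefSeq promoter windows of this length 0.938% held 1 or more and 0.0213% held 2 or more. Nr1d2 held AGGTCA 77 bases before its start and Nfil3 held it on the other strand 12 bases before, a match that 16.3% of windows had. None of the 5 windows, Npas2 included, held the E-box, found in 7.15% of all. A match is a run of letters, and neither its presence nor its absence tells whether a factor binds.

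Usp2, a deubiquitinase and clock output, ran from 6.45 to 10.03 (median 7.48) in low-numbered and from 8.58 to 9.15 (median 8.97) in high-numbered arrays. It rose by 1.24 ± 0.25 (SE, adjusted p = 0.00083), with 1.21, 1.07 and 1.44 in control, clozapine and haloperidol arrays, and its second probe set by 0.44 ± 0.14 (SE, adjusted p = 0.0189; 0.0534 after median centring). Nr1d2, which encodes the repressor REV-ERB beta, rose by 0.49 ± 0.15 (SE, adjusted p = 0.0139), but the difference was -0.04 among controls. Its other probe set rose by 1.56 ± 0.41 (adjusted p = 0.00563) and gave 2.60, 0.06 and 2.03 by treatment. Without the 3 outlying arrays that probe set gave 2.38, 0.06 and 2.79, and its interaction was called (limma adjusted p = 0.0298). Nfil3, whose high-numbered mean of 3.79 lay below the filter of 4, had a median of 4.50 (3.46 to 6.2) against 3.76 (3.47 to 4.07) and fell by 0.96 ± 0.24 (SE, adjusted p = 0.00446). Per3 fell by 0.36 ± 0.10 (adjusted p = 0.00887) and 0.86 ± 0.29 (adjusted p = 0.0257) on its 2 probe sets, both near the lower end of the scale, and Npas2 fell by 0.57 ± 0.19 (adjusted p = 0.0206), with -0.84, -0.04 and -0.83 by treatment. With the 18S covariate none of these 5 genes was called, while standard errors grew and differences moved both ways. Npas2 differed by -0.88 ± 0.25 (adjusted p = 0.0543), Nfil3 differed by -1.01 ± 0.35 (adjusted p = 0.103) and the second Nr1d2 set by 1.82 ± 0.58 (adjusted p = 0.0816), each at least as large as without it. Usp2 differed by 0.64 ± 0.32 (adjusted p = 0.256) and Per3 by -0.21 ± 0.14 (adjusted p = 0.393).

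Other core genes did not pass with all arrays. Arntl differed by -0.22 ± 0.17 (SE, adjusted p = 0.312), Per1 by 0.46 ± 0.23 (adjusted p = 0.128), Per2 by 0.17 ± 0.21 (adjusted p = 0.554), Cry1 by -0.22 ± 0.13 (adjusted p = 0.207) and Cry2 by 0.04 ± 0.11 (adjusted p = 0.82). Nr1d1, which encodes REV-ERB alpha, differed by 0.55 ± 0.26 (adjusted p = 0.106), Bhlhe40 by -0.06 ± 0.13, Rorb by -0.34 ± 0.50, and the 2 Dbp probe sets by -0.07 ± 0.16 (adjusted p = 0.774) and 0.35 ± 0.18 (adjusted p = 0.14). Without the 3 outlying arrays Per1 (0.56, adjusted p = 0.00762), Nr1d1 (0.75, adjusted p = 0.0128), Cry1 (-0.29, adjusted p = 0.039) and the second Dbp probe set (0.40, adjusted p = 0.0392) did pass. The Cry1 difference was not shared by the treatments in that setting. It was -0.68, 0.20 and -0.46 in control, clozapine and haloperidol arrays (limma interaction adjusted p = 0.0177). Probe sets of a gene disagreed for Rora, a ROR activator (1.55, 1.13 and -0.71, all called), and for Tef (0.13 and -0.61 uncalled, 1.53 called). For Clock, Hlf and Wee1 only 1 of 2 probe sets was called (0.54, -0.46 and 0.41), and for Tsc22d3 neither was.

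**Figure D3:**
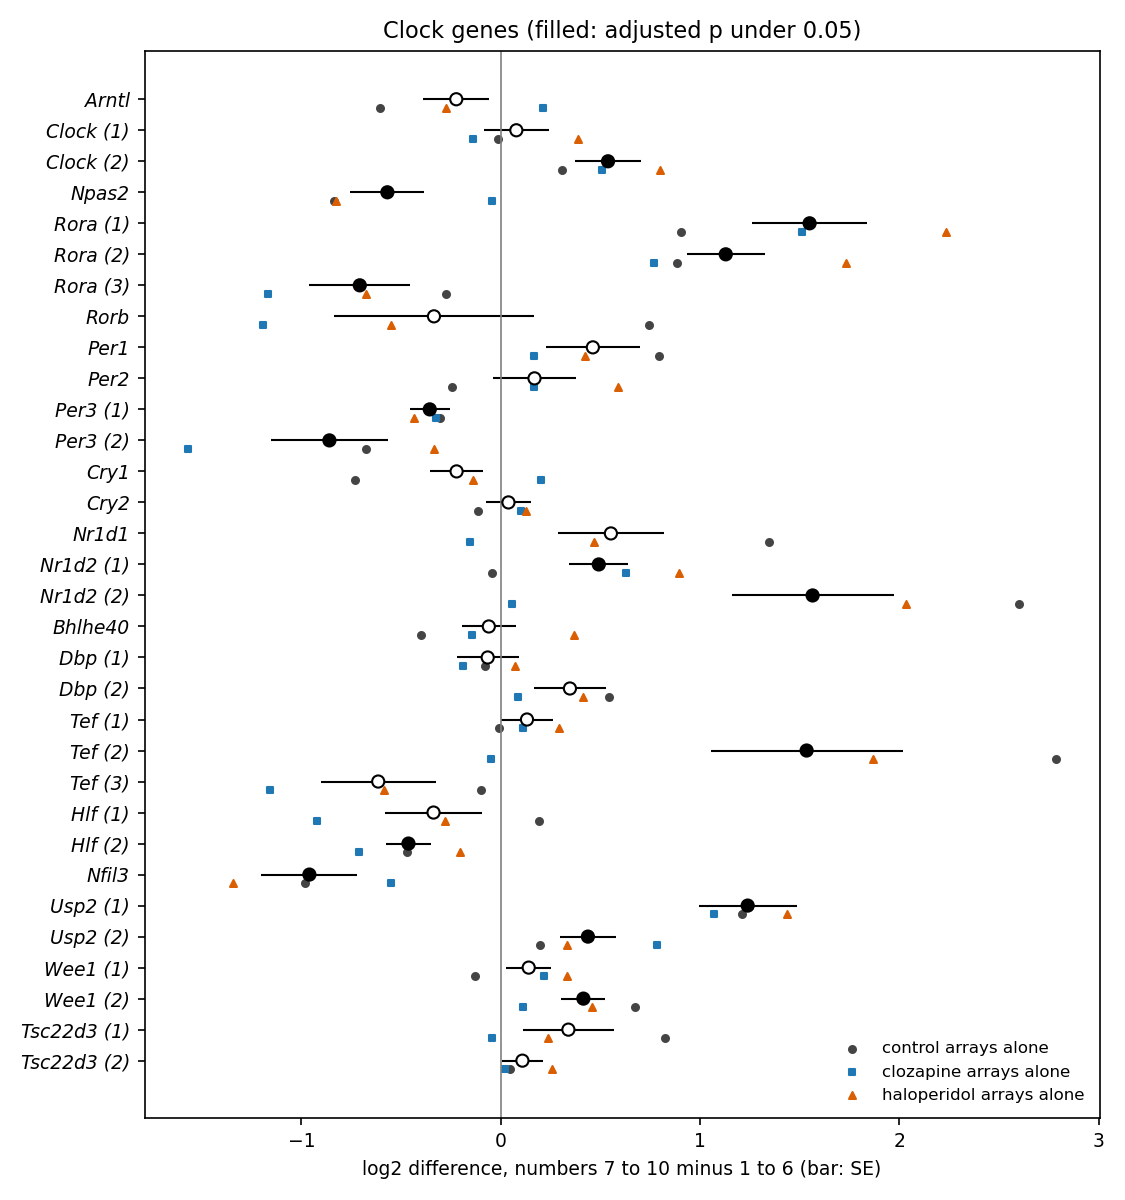
Log2 difference, high-numbered minus low-numbered arrays, of every tested clock probe set (large circles, filled where the limma adjusted p is under 0.05; bars are SE), with the differences within control, clozapine and haloperidol arrays as small points; numbers in brackets order a gene's probe sets by mean value. Usp2, Nfil3 and Per3 keep their side in all 3 treatments, while Arntl, Cry1 and Rorb do not.

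Lists of genes were described with 1 probe set per gene, the one with the highest mean. Over all 7576 genes so measured, 16.4% were called higher and 12.7% lower in high-numbered arrays, with a median difference of 0.06. These shares moved with the setting. They were 12.6% and 17.1% after quantile normalization and 9.89% and 20.4% after median centring. Without the 3 outlying arrays they were 27.4% and 17.5%, and with the RNA quality covariate 23.5% and 15%. List counts under those settings below move with these shares and are to be read beside them. Of 21 measured immediate early genes 0 were higher and 7 lower (33.3%), with a median of -0.26. Junb, an AP-1 subunit, ran from 4.17 to 10.0 (median 8.90) in low-numbered and from 4.12 to 7.94 (median 6.54) in high-numbered arrays, and fell by 1.85 ± 0.48 (SE, adjusted p = 0.00553), with differences of -0.78, -2.16 and -2.62 among control, clozapine and haloperidol arrays. Btg2, an antiproliferative gene, fell by 1.60 ± 0.54 (adjusted p = 0.0256), with a difference of -0.05 among controls. Its other probe set differed by -0.09 (adjusted p = 0.747). Dusp6, a phosphatase of ERK, fell by 0.58, Klf4 by 0.67, Sik1 by 0.44, Egr2 by 0.70 and Bdnf, a neurotrophin, by 0.59. Fos (-0.11), Arc (-0.26), Egr1 (-0.10) and Nr4a1 (-0.28), the usual markers of recent neuronal activity, did not pass. The count was 0 higher and 7 lower after quantile normalization and after median centring too, but 2 and 8 without the 3 outlying arrays, 1 and 8 with the RNA quality covariate, and 1 and 9 over all 28 probe sets of these genes. The list's median was -0.16, -0.04 and -0.62 within control, clozapine and haloperidol arrays. Of 13 glucocorticoid-responsive genes 0 were higher and 1 lower (Cdkn1a, a cell cycle inhibitor, by 0.43 ± 0.11), with a median of -0.01. Over all 23 probe sets of these genes 3 were higher and 1 lower, and without the 3 outlying arrays 1 and 2. Klf9, named above for its rise, belongs to this list but entered it by its probe set of highest mean, which was not called.

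Cytosolic ribosomal proteins were lower: of 29 measured, 18 (62.1%) fell and 1 rose, with a median of -0.26. The mean of the 29 in an array ran from 11.12 to 11.58 (median 11.41) in low-numbered and from 11.02 to 11.30 (median 11.10) in high-numbered arrays, so the sets overlapped. After Rpl37, the smallest p-values were those of Rpl27 (a fall of 0.47 ± 0.09, SE, adjusted p = 0.000706) and Rpl4 (0.42 ± 0.09, adjusted p = 0.00112). Called falls ran down to 0.17, and Rps25 rose by 0.89. The median difference was -0.20, -0.18 and -0.38 within control, clozapine and haloperidol arrays, and 16 to 23 were lower under the other scalings. Ribosomal protein genes have many near-identical pseudogene copies, so a probe set may read more than its gene. Of 31 proteasome subunits 11 fell and 3 rose, with a median of -0.10; Psma7 fell by 0.91 ± 0.21 (adjusted p = 0.00275), Psma5 by 0.46 ± 0.11 (adjusted p = 0.00241) and Psmb3 by 0.55 ± 0.14 (adjusted p = 0.0039), while Psmd8 rose by 0.62. Of 48 respiratory chain genes 4 rose and 5 fell, with a median of -0.01; after median centring 2 rose and 12 fell, and without the 3 outlying arrays 10 rose and 6 fell. Ndufa10 of complex I fell by 0.60 ± 0.12 (adjusted p = 0.000713), and Atp5d of ATP synthase rose by 0.54 ± 0.13 (adjusted p = 0.00299).

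Of 11 genes for GABA synthesis, transport and receptors 5 rose and 1 fell, with a median of 0.43, and the split was 6 to 1 and 4 to 1 under quantile normalization and median centring. The median was 0.33, 0.04 and 0.80 within control, clozapine and haloperidol arrays. Gabrb1, a GABA-A receptor subunit, ran from 9.09 to 10.76 (median 9.73) and from 10.42 to 10.96 (median 10.54), and rose by 0.86 ± 0.13 (SE, adjusted p = 8.1e-05). Abat, which breaks down GABA, rose by 0.69 ± 0.15 (adjusted p = 0.00133) and Gabra3 by 1.29 ± 0.35, with 0.01 among clozapine arrays. Gabrd, the delta subunit, fell by 0.92 ± 0.22 (adjusted p = 0.00329). Gad1 (0.29 on its main probe set) and Gad2 (0.70), which make GABA, did not pass. A second Gad1 probe set did, with a rise of 0.62 ± 0.21 (adjusted p = 0.0263). Of 16 synaptic vesicle genes 4 rose and 0 fell: Nsf by 0.72 ± 0.17 (adjusted p = 0.00254), Rab3a by 0.53 ± 0.15, Vamp2 by 0.28 ± 0.11 and Snap25 by 0.25 ± 0.09. After median centring 2 rose, and without the 3 outlying arrays 8 did. The vesicle list's median was 0.37, -0.01 and 0.27 within control, clozapine and haloperidol arrays. Of 8 glutamate receptor genes Grin2b rose, and Grik1 and Gria2 fell by 0.53 and 0.49. Grin2b had passed the filter through the high-numbered arrays, so its call is not independent of the filter.

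Of 12 heat shock chaperones 5 rose and 0 fell, with a median of 0.23 over all arrays and -0.09, 0.35 and 0.33 within control, clozapine and haloperidol arrays. Hsph1 rose by 0.35 ± 0.08 (SE, adjusted p = 0.00291), Dnaja1 by 0.57 ± 0.14 (adjusted p = 0.0036) and Hspa4l by 0.64 ± 0.17 (adjusted p = 0.00626). After median centring 3 rose and 2 fell, so the one-sided count depended on scaling. Of 13 glycolytic enzymes 4 rose and 0 fell, among them Pgk1 (0.41 ± 0.10, adjusted p = 0.00527) and Eno2 (0.50 ± 0.14, adjusted p = 0.00811); centring gave 2 and 1, and leaving out the 3 arrays 8 and 0. Splicing factors went both ways, with 8 of 37 higher and 5 lower, and with 3 higher and 8 lower after median centring. Srsf6 rose by 0.85 ± 0.18 (adjusted p = 0.00131), and Luc7l2 and Sf3b1 fell by 1.02 and 0.61, though each had another probe set called higher (0.54 and 0.51). Of 5 measured nuclear-retained RNAs, Neat1 and Snhg11 rose by 0.64 and 0.67, while Malat1 differed by -1.27 ± 0.53 (adjusted p = 0.0667) and Rian by -0.40 ± 0.37 (adjusted p = 0.428), with another Rian probe set called at -1.71 (adjusted p = 0.0241). Their median was 0.42, but -0.19 over all 15 probe sets, and without the 3 outlying arrays 2 rose and 2 fell.

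Markers of cell types and regions differed too, and in a bulk tissue sample more cells of a type and more RNA per cell cannot be told apart. Of 11 oligodendrocyte markers 5 rose and 0 fell, with a median of 0.30; after quantile normalization 2 rose, after median centring 1, and without the 3 outlying arrays 7. Cnp, a myelin enzyme, ran from 11.77 to 12.94 (median 12.22) and from 12.37 to 13 (median 12.80), and rose by 0.45 ± 0.12 (SE, adjusted p = 0.00886). Of 16 astrocyte markers 2 rose and 4 fell: Gjb6, connexin 30, fell by 1.06 ± 0.23 (adjusted p = 0.00139), Slc1a2 and Slc1a3, the glutamate transporters, by 1.08 and 0.43, and Glul, glutamine synthetase, by 0.30, whereas Gja1, connexin 43, rose by 0.49 and S100b by 0.38. After median centring 0 of them rose and 6 fell, and the list's median turned from -0.14 to 0.11 over all 32 of its probe sets. A second Slc1a3 set was called higher (0.52, adjusted p = 0.0132). Aqp4 differed by 0.25 on its main probe set, uncalled, and by -2.24 on the other (adjusted p = 0.00158). Microglia markers divided 3 to 3, with Tyrobp (0.80), P2ry12 (0.66) and Ctss (0.56) higher and Cx3cr1 (-1.05), Aif1 (-0.40) and Trem2 (-0.40) lower.

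Of 9 thalamic and midbrain markers 4 rose and 1 fell, with a median of 0.47, and 3 rose and 1 fell under both other scalings. Tcf7l2, a thalamic transcription factor, ran from 5.16 to 7.76 (median 6.70) and from 7.01 to 8.12 (median 7.42), and rose by 0.84 ± 0.19 (SE, adjusted p = 0.00184). Ddc, which makes dopamine and serotonin, rose by 0.76 ± 0.23 (adjusted p = 0.0152), Slc17a6, a vesicular glutamate transporter, by 0.47, and Th, the first enzyme of dopamine synthesis, fell by 0.83 ± 0.27 (adjusted p = 0.0201). The remaining riser was Rora (1.55), also counted among the clock activators, with another of its probe sets called at -0.71. Of 8 hypothalamic neuropeptide genes Nts, Hap1, Avp and Cartpt rose by 0.87, 0.70, 0.74 and 0.66, and Trh fell by 0.99 ± 0.25 (adjusted p = 0.00434). After median centring 2 rose and 2 fell. Of 11 striatal markers Drd2, the receptor that haloperidol blocks, rose by 0.65 ± 0.18 (adjusted p = 0.00695), Tac1 by 0.46 and Ppp1r1b by 0.41, while Foxp1 fell by 0.71 on one set and rose by 0.90 on another (adjusted p = 0.0145); after median centring 2 rose and 3 fell. Of 11 cortical markers 1 rose (Mef2c, by 0.28, with another of its sets called at -0.82) and 0 fell, and 2 fell under both other scalings. Of 5 measured choroid plexus markers 1 was called higher and 0 lower, and 3 of the 5 had a positive difference. The called marker was Ttr, the main choroid plexus transcript. It rose by 0.43 ± 0.11 (adjusted p = 0.00496), with 0.43, 0.44 and 0.42 by treatment. Whether dissection differed between the sets was not tested.

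**Figure D4:**
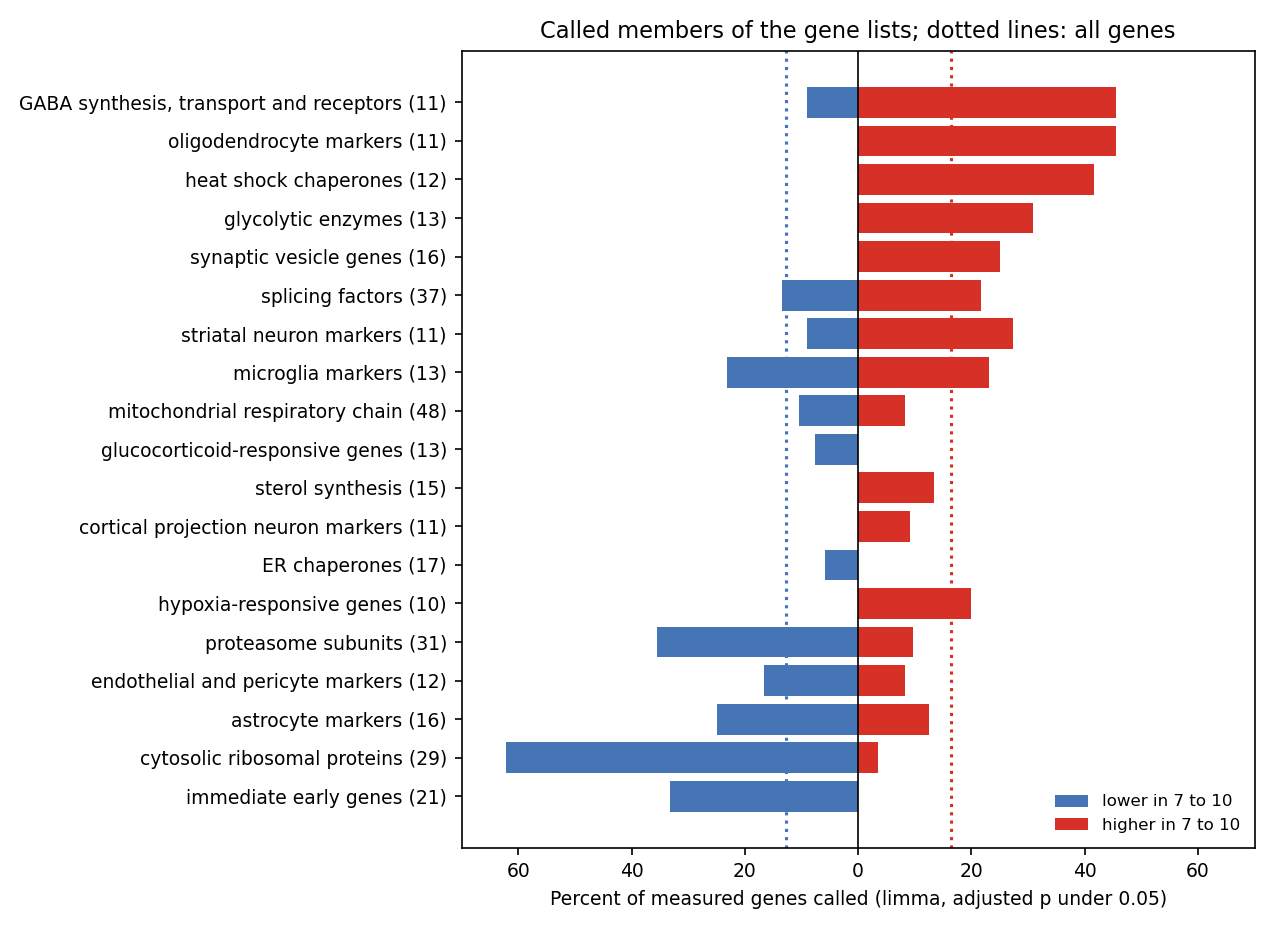
Percent of measured genes called higher (right, red) or lower (left, blue) in high-numbered arrays for the lists with at least 10 measured genes, ordered by median difference; the number measured stands in brackets and dotted lines mark all 7576 genes. Ribosomal proteins and immediate early genes lie to the left and GABA genes and oligodendrocyte markers to the right of the all-gene lines.

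Within a treatment the difference by number was called for 610 probe sets in control (4.71%), 927 in clozapine (7.16%) and 1441 in haloperidol arrays (11.1%), in a fit of 6 group means with a shared spread; 26 were called in each of the 3 with a like sign. The order of these counts depended on the shared spread: fitted on its own arrays alone, each treatment gave 889 (control), 1646 (clozapine) and 389 (haloperidol). Spread differed between these groups: the median SD of a probe set was 0.42 among low-numbered and 0.14 among high-numbered controls, 0.33 and 0.26 for clozapine, and 0.45 and 0.34 for haloperidol. An interaction of number set and treatment was called for 10 probe sets (0.0773%; limma F test, 1799 at an unadjusted p under 0.05). Cbl, an E3 ubiquitin ligase, averaged 7.74 and 7.18 in low-numbered and high-numbered controls, 7.35 and 3.29 with clozapine and 7.45 and 6.07 with haloperidol (interaction adjusted p = 0.00512). Rbbp4, a histone-binding protein, averaged 8.09 and 9.19, 8.32 and 4.75, and 7.80 and 8.72 in the same order (interaction adjusted p = 0.0469). Adarb1, an RNA-editing enzyme, rose by 3.53 among controls and by 2.23 with haloperidol, with -0.02 for clozapine. Its low-numbered means (3.30, 3.31 and 3.32) and its high-numbered clozapine mean (3.30) lay below the filter of 4. It passed that filter through the high-numbered control (6.83) and haloperidol (5.55) arrays, which also make its interaction, so the call is not independent of the filter. The other 7 were Ctcf, Cux1, Pdcd6ip, Zfp704, Plekha5, Camk4 and a probe set without a name. Of these, Cux1 and Pdcd6ip averaged 4.12 and 4.21 over all arrays, close to the filter.

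Without the 3 outlying arrays the interaction count was 1229 (9.49%), and it held all 10. The difference by number then differed between clozapine and control for 1444 probe sets and between clozapine and haloperidol for 993, and between haloperidol and control for 0 (limma, 229 at an unadjusted p under 0.05). With all arrays these counts were 185, 0 (872 unadjusted) and 0 (1073 unadjusted). The difference between clozapine and haloperidol was thus called only after leaving out arrays, among them haloperidol 7, which lay with the high-numbered clozapine arrays in 18S value and component 1. These pairs share arrays, so the counts are not independent. Of the 32 named genes 2 were called: Grin2b rose by 3.79, 1.12 and 3.36 in control, clozapine and haloperidol arrays (interaction adjusted p = 0.0238), and Pdpk1 by 3.0, 0.83 and 4.25 (interaction adjusted p = 0.0303). For Grin2b, which passed the filter through the high-numbered arrays, this call is not independent of the filter either. Neurod1, a neuronal transcription factor, rose by 1.27 with clozapine and differed by 0.08 and 0.01 in the others (interaction adjusted p = 0.000119). Cx3cr1, the microglial fractalkine receptor, fell by 2.15 with clozapine beside -0.08 and -0.80 (interaction adjusted p = 0.0487). The 4 high-numbered clozapine arrays had the 18S control between 2.41 and 2.50, as did haloperidol 7 at 2.41, and the part of that in the interaction was not tested.

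Array deviations from their treatment mean were correlated over the tested probe sets for pairs from different treatments. The median correlation was 0.23 for pairs of different number within 7 to 10 (36 pairs), 0.04 within 1 to 6 (90 pairs) and -0.26 across the sets (144 pairs). Their ranges overlapped: -0.37 to 0.82, -0.52 to 0.80 and -0.62 to 0.73. The division had been noticed in these same values, so these correlations do not count as support for it. Treatment means covered both sets, so a difference between the sets itself lowers correlations across them. High-numbered control and haloperidol arrays had a median of 0.77 (16 pairs) and high-numbered control and clozapine arrays 0.12 (16 pairs).

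Probe sets of a gene often disagreed. Of 2853 genes with at least 2 tested probe sets, 655 had 2 or more called, and in 126 of these (19.2%) the calls went in both directions; in 287 genes every tested probe set was called in a like direction. Mapt, the microtubule protein tau, rose by 1.25 ± 0.39 (SE, adjusted p = 0.017) on a probe set with a mean of 6.81 and fell by 1.77 ± 0.38 (adjusted p = 0.00145) on another with a mean of 11.70. Rbm39, a splicing factor, gave 1.61 and -2.21, Pde10a, a striatal phosphodiesterase, 1.39 and -1.37, and G3bp2 1.53 and -1.31. Scn2a, a neuronal sodium channel, gave 0.90 and -1.07, and Rbfox2, named above for its fall, also rose by 0.90 on a probe set with a mean of 4.47. Klf9, named for its rise, differed by 0.13 on its probe set of highest mean. Atxn2, named for its fall, gave 0.99 (adjusted p = 0.0425) and -0.41 (adjusted p = 0.0511) on its other sets. Pdpk1, Klf7, Kif3a, Scaf11, Rufy3, Ldah and Mapre2 each had an uncalled probe set of opposite sign. Csnk2a1, named for its fall, differed far less on its other sets. These gave -0.44, -0.19 and -0.47, all uncalled, and -0.66 (adjusted p = 0.00239). A rise or fall here is thus that of a probe set, and its extension to the whole gene needs the other sets. Probe sets whose suffix marks cross-matching probes (_x_at, 1043 tested) were higher in 8.82% and lower in 21.5%, beside 20.1% and 12.8% of the 8156 plain _at sets.

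Genes called higher were longer and more highly expressed than those called lower. Gene span in RefSeq (GRCm38.p6) had a median of 35 kb among the 1240 genes higher in high-numbered arrays, 19.6 kb among the 963 lower and 22.8 kb among those not called. Genes were divided by span into 5 classes of equal size. In the shortest class (up to 8.16 kb) 10.3% were higher and 15.4% lower, and in the longest (from 70.2 kb) 22.0% and 12.2%. Among genes below the median level the shares higher were 7.62% and 18.6% in these classes, and among those above it 12.8% and 25.7%. Within treatments, short and long genes were higher in 0.528% and 2.31% of cases for control, 3.17% and 5.68% for clozapine and 2.05% and 10.0% for haloperidol. They were lower in 1.12% and 0.793% for control, 1.98% and 4.95% for clozapine and 5.75% and 3.1% for haloperidol. The median difference of short and long genes was -0.03 and -0.04 within control, 0.05 and 0.11 within clozapine and -0.09 and 0.18 within haloperidol, so among controls it did not grow with span. By mean log2 value, 8.64% of the lowest of 5 classes were higher and 21.5% lower, against 23.8% and 11.8% of the highest. Genes are not independent replicates, and these shares are given without a test.

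**Figure D5:**
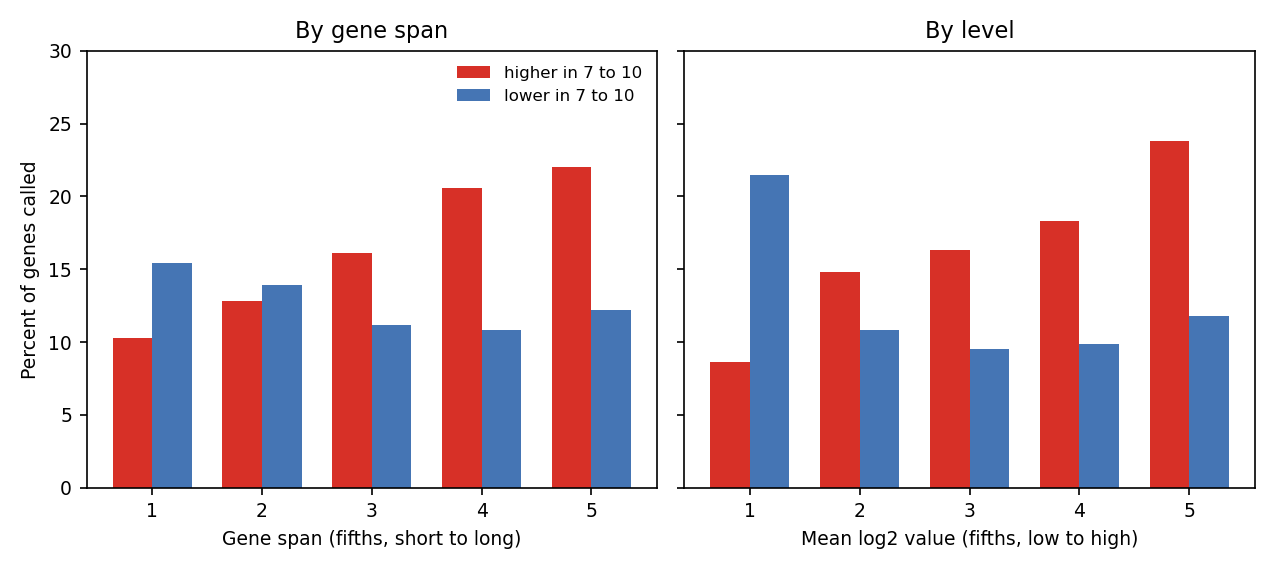
Percent of genes called higher (red) or lower (blue) in high-numbered arrays, by 5 classes of gene span from short to long (left) and of mean log2 value from low to high (right), 1 probe set per gene. The share called higher grows from 10.3% to 22.0% with span and from 8.64% to 23.8% with level.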

How the data were processed

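Values were deposited as log2 expression, 1 per probe set and array, made by the authors with GCRMA per the submitters' processing notes; no source used here gives its version, the scan dates or which arrays were normalized together. GCRMA corrects background by probe sequence, which places weak probe sets in a narrow low range and compresses their differences; no detection calls were used, and the number of arrays limits the precision. Of 22690 probe sets, 64 were Affymetrix controls, described apart. Of the remaining 22626, those averaging 4 or more over all arrays (12944) were tested. The platform annotation, updated through Entrez identifiers to RefSeq symbols, gave 20380 probe sets 1 gene, 691 several and 1555 none.

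Differences were fitted with limma 3.58.1 in R 4.3.3 (treatment plus number set, 26 residual degrees of freedom, two-sided) and adjusted by Benjamini-Hochberg over all tested probe sets, with calls under 0.05. The fit was tried on simulated data with independent noise, of equal spread in all arrays for a given probe set. The real arrays clustered and differed in spread between groups, so that trial does not tell how far the calls hold here. Quality measures and components used 100000 permutations of the set within treatment. Named genes were those called with a like sign in all treatments that were among the 8 largest differences or the 8 smallest p-values in a direction, the clock genes, and 3 genes of smallest p per list. Other list members, genes whose probe sets disagreed and genes with an interaction were chosen after their values were seen. The comparison, the lists and the rule were chosen with earlier results of these data known. Each array is a separate mouse. Same-numbered arrays of different treatments correlated between -0.50 and 0.80 in their deviations, with 17 of 30 pairs above 0.1. Within 1 to 6 these were 8 of 18 pairs, beside 42 of 90 pairs of different number. Within 7 to 10 they were 9 of 12, beside 27 of 36. The mice were therefore not treated as paired by number. Alternatives covered scaling, filters, covariates, weights, a random block and each array or number left out.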

Additional observations from a re-analysis of the deposited data

Results flagged for a closer look

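Within each treatment, 126 sets of 10 arrays (quality measures, components and the 32 named genes) were searched for an array far from the others, and 7 were found; chance gives about 1 in 20. Control 1 had a Gapdh 3' minus 5' difference of 6.25, with the nearest control at 0.70, and scored 74.2 on component 2, with the nearest at 16. Haloperidol 7 had an Actb 3' minus 5' difference of 3.19, the nearest being 1.21, and haloperidol 2 scored 98.3 on component 3, the nearest being 17.8. Control 5 had the smallest interquartile range of its group, 4.41 against 4.77. Clozapine 6 scored 40.3 on component 3, with the nearest at 14. Homer2 in clozapine 7 was 5.64, below the nearest value of 8.06. The difference by number differed between treatments, by the interaction test, for 10 probe sets.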

How the results depend on the processing

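The count of 4157 probe sets stayed within 1.5 times under quantile normalization (4208), median centring (4273), a mean of at least 6 (2858 of 9158), a value of at least 4 in 12 arrays (4185), no treatment covariate (4172), the RNA quality covariate (5371), trend and robust eBayes (4152) and without the 3 outlying arrays (6170). It was 11373 of 22626 without a filter (3111 higher, 8262 lower), 7865 with array weights and 371 with the 18S covariate. Each treatment by itself gave 889 (control), 1646 (clozapine) and 389 (haloperidol). Leaving out an array or a number gave 2706 to 5002; the low counts were 2706 without number 5 and 2762 without number 8. Within treatments, the shared-spread counts without the 3 arrays were 1840, 3004 and 3577 for control, clozapine and haloperidol. The interaction count was 1229 without the 3 arrays and 26 with the RNA quality covariate. Treatment calls stayed at 0 in 5 other fits, with a smallest adjusted p of 0.0918.

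A random replicate block gave 3935 calls (2260 higher, 1675 lower), with a correlation of 0.03 between same-numbered arrays, and a fixed replicate block gave 0 treatment calls; pairing by number changed none of the 32 named genes' calls.

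Without the 3 arrays Gapdh 3' minus 5' differed by -0.21 (permutation p adjusted to 0.00968) and the hybridization spikes by -0.60 (0.0331), both past the threshold, and the share between sets was 4.19% for component 2 (0.222) and 1.98% for component 3 (0.599), both no longer so. The 32 named genes kept their calls under the other scalings and without any single array or number; 11 lost them with the 18S covariate, and 10 to 16 with 1 treatment alone. The sign turned in 1 treatment alone for Nr1d2 (-0.044, control), Tef (-0.049, clozapine) and Neurod1 (-0.12, control). The cause was not tested in any of these. Signal over background limits genes near a value of 4, for which no detection calls were used.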

Other observations

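Further lists lay on both sides of the shares of all genes, of which 16.4% were called higher and 12.7% lower. Shares of all genes under other settings are those given with the lists above. Of 15 sterol synthesis genes 2 rose in high-numbered arrays, Cyp51 by 0.52 ± 0.13 (SE, limma adjusted p = 0.00573) and Dhcr7 by 0.47 ± 0.17 (adjusted p = 0.0309), and 0 fell; after quantile normalization 1 rose and 4 fell, and without the 3 outlying arrays 4 rose and 4 fell. Of 17 ER chaperones 0 rose and 1 fell, Pdia4, a disulfide isomerase, by 0.89 ± 0.24 (adjusted p = 0.00706), and 1 rose and 4 fell without the 3 arrays. Of 10 hypoxia-responsive genes Pgk1 and Bnip3 rose, the latter by 0.34 ± 0.10 (adjusted p = 0.00955), with a median of -0.08. The cold-inducible RNA-binding proteins Cirbp (0.08) and Srsf5 (0.06) did not pass.

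Of 12 endothelial and pericyte markers Rgs5 rose by 0.62 ± 0.16 (SE, adjusted p = 0.00531), and Acta2 and Pdgfrb fell by 0.51 and 0.42. Of 2 measured blood markers 1 was called. Hbb-b2, a hemoglobin chain, fell by 0.33 ± 0.11 (adjusted p = 0.0263) on a cross-matching _x_at set near the filter, with means of 4.71 and 4.39. Its other set differed by -0.29 (adjusted p = 0.0982) and Bpgm, the other marker, by -0.14 (adjusted p = 0.5). Of 8 olfactory bulb markers Pbx3 rose by 0.96 and Meis2 fell by 0.79; of 6 cerebellar markers, several of them also expressed in forebrain, Neurod1 and Calb1 rose (the latter with another set called at -0.58) and Car8 and Ppp1r17 fell, with 0 higher and 2 lower under both other scalings. Of 4 hippocampal markers Neurod1 rose, and 0 were called under both other scalings. Of 7 meningeal markers 0 were called (limma; 1 at an unadjusted p under 0.05, Dcn, with 0.60 ± 0.26 and an adjusted p of 0.0781), and without the 3 arrays 2 rose. None of the 7 pituitary markers with a probe set reached a mean of 4, though growth hormone (Gh) reached 9.17 in 1 array.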
